A study of Bos taurus with 44 samples.

Results

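The genes described here encode the proteins of the cytosolic ribosome. They were chosen by their annotated symbol: RPL or RPS followed by a digit, or RPSA, RPLP0, RPLP1 or RPLP2. RPS6K kinases, RPL7L1, RPS19BP1 and RPS27L were left out, because they carry a similar symbol without being ribosomal proteins of the standard set. This gave 55 genes of the 8073 named genes on the arrays, 22 of the small and 33 of the large subunit, each represented by 1 probe. The rule uses no measured value, apart from missing values where a gene had several probes, but it was set with earlier results of these data known. The bovine gene table used for names holds 82 such symbols, and the rest of the family was not analysed here. RPLP0, the base of the stalk, and RPL5 and RPL11, which bind the smallest RNA of the large subunit, are part of that rest.

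A ribosome consists of a small subunit, which reads the mRNA, and a large subunit, which joins the amino acids. Its proteins are made in nearly every cell and in matched amounts, and most of their mRNAs carry a terminal oligopyrimidine tract (TOP) at the start, through which the kinase complex mTORC1 controls their translation. Several of them also act outside the ribosome. RPSA, for example, is the precursor of a laminin receptor. In the uterus, protein synthesis of the glands supplies the secretions on which the early conceptus lives.

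The study measured RNA of cattle tissue on 44 arrays, each holding 2 samples in 2 colours. IVF-ET animals (in vitro fertilisation and embryo transfer) were set against AI animals (artificial insemination) on 10 arrays of the caruncular and 10 of the intercaruncular area, with 5 animals a group in each. The same 5 IVF-ET animals and 3 of the AI animals gave both areas, which the fit treated as separate samples. SCNT (somatic cell nuclear transfer, or cloning) met AI directly on 4 caruncular arrays, as 2 pools a group. In the intercaruncular area, 5 SCNT animals and 4 other AI animals were each set against the same 5 CJ animals, 10 arrays a group. AI cattle paired with IVF-ET carry the label IAT, while those paired with CJ or with SCNT pools carry IAJ. IAT and IAJ are numbered separately here, so the same AI number names different animals in each. CJ is described in the labels by the word cycle. Caruncles are the patches of the ruminant uterine lining to which the placenta attaches. The labels used here give no age, day or breed, and not the number of animals in a pool.

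Values are log2 ratios of the 2 colours of an array, with no absolute level, so no gene's amount can be set against another's. Precision is limited by the number of animals. The log2 ratios of an array had an SD of 0.221 to 0.62, and duplicate spots correlated at an r of 0.545 to 0.935 (over the probes of 1 array, which are no independent replicates). Without levels, the labelled areas could not be checked against marker genes. The labels do not say which dye is the numerator, and Cy5 over Cy3 was taken as likely. Read so, ISG15, an interferon-stimulated gene, was higher by 4.65 ± 0.60 in SCNT and by 2.90 ± 0.62 in AI than in CJ (log2 difference ± SE). The oxytocin receptor gene OXTR then had -3.54 ± 0.32 in SCNT and -2.71 ± 0.33 in AI. Both directions are those known for early pregnancy in ruminants. Under the other reading, every sign below turns. In RNA of whole tissue, fewer cells of a type and less RNA per cell cannot be told apart. Ribosomal protein genes have many near-identical processed copies in mammalian genomes, so a probe may also have bound RNA of a copy.

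The comparison of SCNT with CJ asked how intercaruncular tissue of SCNT animals differed from that of CJ animals. Of the 55 ribosomal protein genes, 4 rose and 19 fell at an adjusted p below 0.05 (limma, Benjamini-Hochberg over 13824 probes). Over all probes, 10.4% rose, 11.3% fell and 21.7% were called in either direction, and over the 8073 named genes 26.7% were called. The share among the ribosomal protein genes was 41.8%. The small subunit had 2 higher and 10 lower of 22 genes, and the large subunit 2 higher and 9 lower of 33. The median log2 difference was -0.19 for the small subunit and -0.04 for the large, against 0.01 for all probes. No ribosomal protein gene moved by more than 1 on the log2 scale, while 384 probes did.

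**Figure D1:**
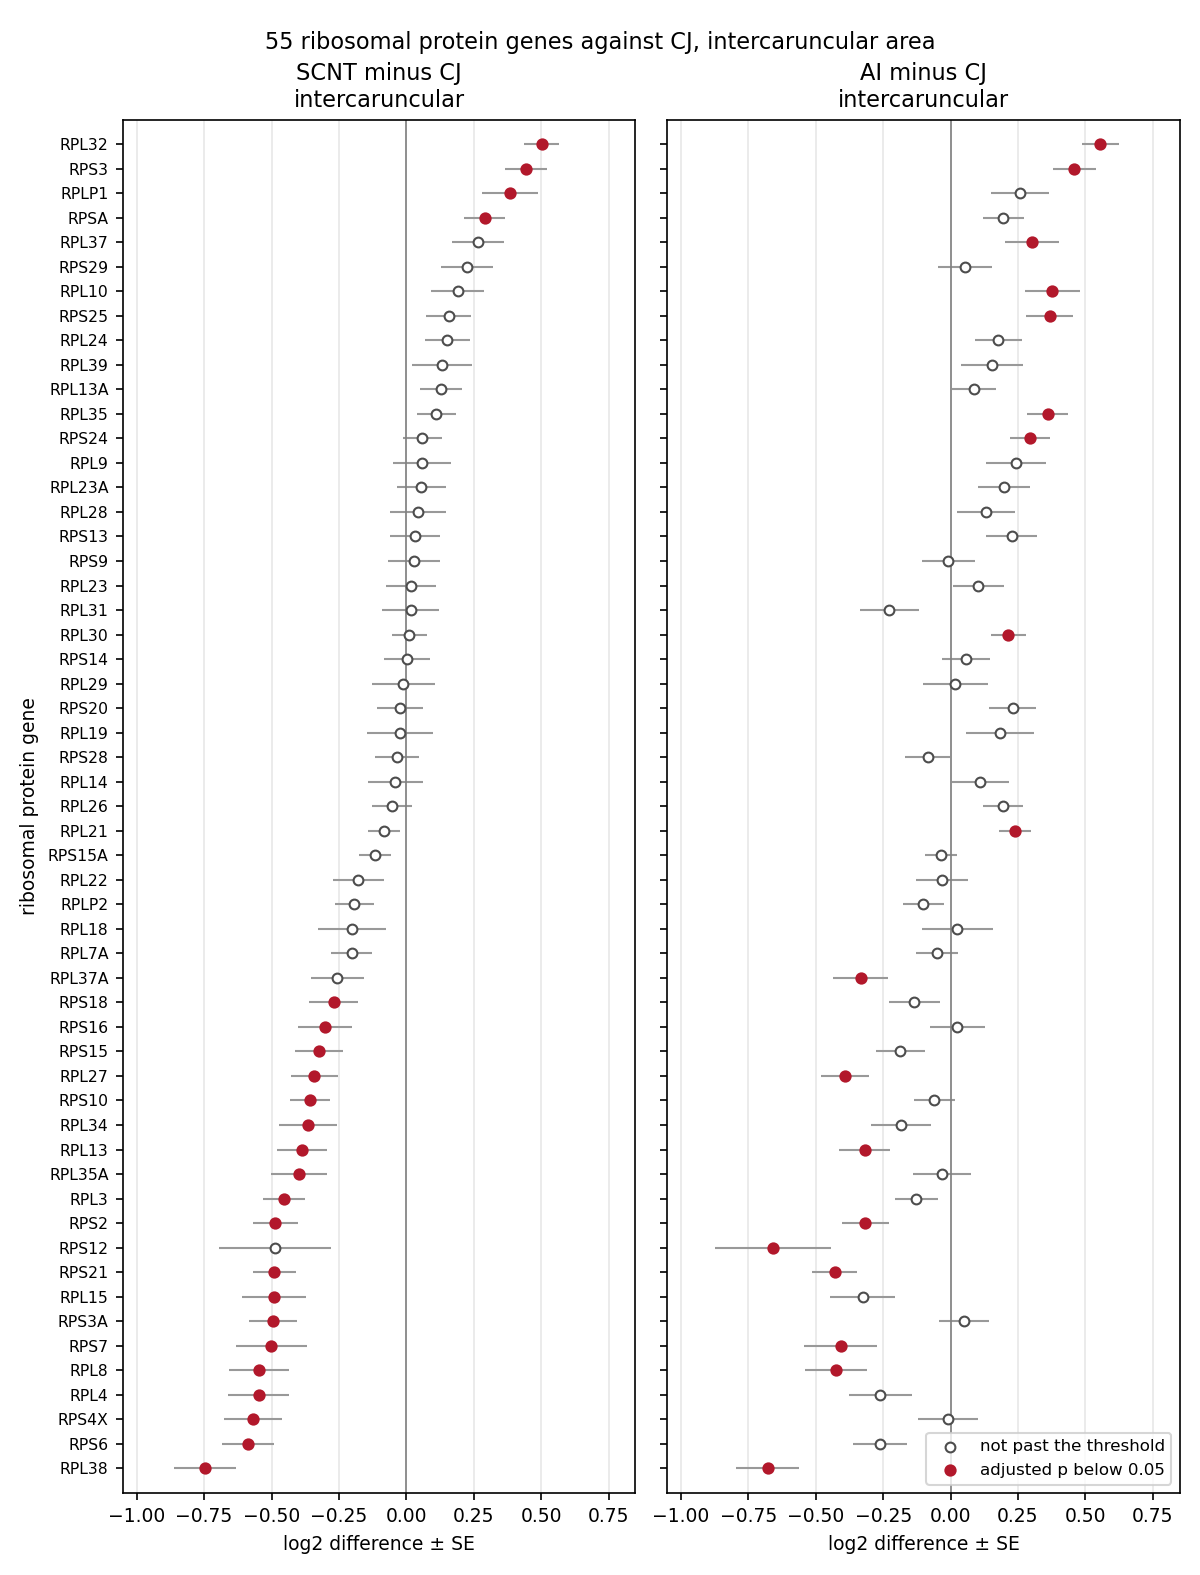
Log2 difference ± SE (horizontal axis) of the 55 ribosomal protein genes (vertical axis, ordered by the difference between SCNT and CJ) in SCNT (left) and AI (right) against CJ, intercaruncular area. Filled red points passed an adjusted p of 0.05: 23 genes in SCNT and 18 in AI, from RPL38 at the bottom to RPL32 at the top.

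RPL32, a large subunit protein, rose most. It had log2 ratios of 0.32, 0.51, 0.73, 0.45 and 0.50 in SCNT animals 1 to 5, each relative to CJ animals. All 5 animals and all 10 arrays lay above 0, and the difference was 0.50 ± 0.07 (SE; limma, adjusted p = 9.99e-06). RPS3, which sits where the mRNA enters the small subunit and also takes part in DNA repair, had 0.36, 0.78, 0.41, 0.40 and 0.27. It was above 0 on all 10 arrays too, with the highest value in SCNT animal 2 (0.45 ± 0.08, limma, adjusted p = 0.000225). RPLP1 is one of the acidic proteins of the stalk that recruits translation factors, and it had 0.36, 0.42, 0.28, 0.58 and 0.29 in the same animals. RPSA had 0.40, 0.33, 0.32, 0.21 and 0.19. No SCNT animal was below 0 for either gene, and their differences of 0.38 ± 0.10 and 0.29 ± 0.08 passed the test (limma, adjusted p = 0.00918 and 0.00723). The partner of RPLP1 in the stalk, RPLP2, had -0.14, 0.07, -0.34, -0.23 and -0.33 and did not pass it (-0.19 ± 0.07, limma, adjusted p = 0.0632).

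The lowest member was RPL38, a small protein of the large subunit which in mouse is needed for translation of some Hox mRNAs. Its log2 ratios were -0.85, -0.69, -0.48, -1.01 and -0.72 in SCNT animals 1 to 5. It was below 0 on all 10 arrays, with a difference of -0.75 ± 0.11 (limma, adjusted p = 6.05e-05), a 1.68-fold lower ratio. RPS6, the small subunit protein that S6 kinases phosphorylate, had -0.36, -0.88, -0.62, -0.57 and -0.50 (-0.59 ± 0.10, limma, adjusted p = 0.000133). RPS21 had -0.28, -0.34, -0.39, -0.82 and -0.63 (-0.49 ± 0.08, adjusted p = 0.000128). Both were below 0 in every SCNT animal and on all 10 arrays, but their lowest animals differed, SCNT 2 for RPS6 and SCNT 4 for RPS21.

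RPL3, which lies next to the peptidyl transferase centre, had -0.26, -0.47, -0.48, -0.52 and -0.54 in SCNT animals 1 to 5, a narrow range apart from animal 1 (-0.45 ± 0.08, limma, adjusted p = 0.000183). RPS2, near the mRNA entry of the small subunit, had -0.50, -0.40, -0.27, -0.48 and -0.78 (-0.49 ± 0.08, adjusted p = 0.000212). RPS3A, a small subunit protein with roles in cell growth reported outside the ribosome, had -0.46, -0.82, -0.30, -0.32 and -0.57 (-0.49 ± 0.09, adjusted p = 0.00032). For all of these, no SCNT animal reached 0.

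The other 13 genes that fell had differences from -0.27 (RPS18) to -0.57 (RPS4X). They include RPL4 (-0.55), which lines the exit tunnel of the nascent chain, and RPL8 (-0.55), near the peptidyl transferase centre. RPS10 (-0.36) and RPL35A (-0.40) are among the genes mutated in Diamond-Blackfan anaemia in humans. RPS7 (-0.50), RPL15 (-0.49), RPL13 (-0.39), RPL34 (-0.36), RPL27 (-0.34), RPS15 (-0.32) and RPS16 (-0.30) complete them. RPS12 had a difference of similar size (-0.49), but its animals spread from 0.20 in SCNT 1 to -1.70 in SCNT 4, and it did not pass the test.

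AI animals were compared with the same CJ animals on 10 other arrays. Here 9 ribosomal protein genes rose and 9 fell, 32.7% of the 55. Over all probes, 6.92% rose, 8.08% fell and 15% were called, and 18.9% of the named genes were called. The median difference of the 55 was 0.03, with 29 above 0 and 26 below, against 0.01 for all probes. The small subunit had 3 higher and 4 lower, the large subunit 6 higher and 5 lower.

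RPL32 again had the smallest p, with log2 ratios of 0.57, 0.66, 0.44 and 0.63 in AI animals 1 to 4. These values were above 0 on all 10 arrays (0.56 ± 0.07, limma, adjusted p = 1.07e-05). RPS3 had 0.24, 0.50, 0.46 and 0.62, also above 0 on every array of this group (0.46 ± 0.08, adjusted p = 0.000422). RPL35, which lies at the end of the exit tunnel, had 0.30, 0.61, 0.27 and 0.32 (0.36 ± 0.07, adjusted p = 0.00199). All 4 animals were high for these 3 genes, and RPL35 was highest in AI animal 2.

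RPS25, a small subunit protein needed for translation from some internal ribosome entry sites, had 0.48, 0.63, 0.04 and 0.53 in AI animals 1 to 4 (0.37 ± 0.09, limma, adjusted p = 0.00515). RPS24 had 0.36, 0.27, 0.11 and 0.57 (0.29 ± 0.07, adjusted p = 0.00765). AI animal 3 was the lowest for both. The remaining genes that rose were RPL10 (0.38), which joins the large subunit late in its assembly, RPL37 (0.30), RPL21 (0.24) and RPL30 (0.21).

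Among the genes that fell in AI, RPL38 had -0.55, -0.95, -0.39 and -1.01 in animals 1 to 4, all 10 arrays being below 0 (-0.68 ± 0.12, limma, adjusted p = 0.000406). RPS21 had -0.40, -0.45, -0.29 and -0.68 (-0.43 ± 0.08, adjusted p = 0.00108). RPL27 had -0.70, -0.48, -0.21 and -0.30 (-0.39 ± 0.09, adjusted p = 0.00396). No AI animal was above 0 for these 3 genes. RPS12 (-0.66), RPL8 (-0.42), RPS7 (-0.41), RPL37A (-0.33), RPL13 (-0.32) and RPS2 (-0.32) also fell.

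RPS3A, RPSA, RPLP1 and RPLP2 did not pass the test in AI. RPS3A had 0.07, -0.07, 0.16 and 0.00 in AI animals 1 to 4 (0.05 ± 0.09, limma, adjusted p = 0.885). RPSA had 0.32, -0.15, 0.39 and 0.10 (0.20 ± 0.08, adjusted p = 0.101). RPLP1 had 0.43, 0.18, 0.24 and 0.18, all above 0 (0.26 ± 0.11, adjusted p = 0.122). RPLP2 had -0.02, -0.27, -0.02 and -0.15 (-0.10 ± 0.08, adjusted p = 0.51).

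**Figure D2:**
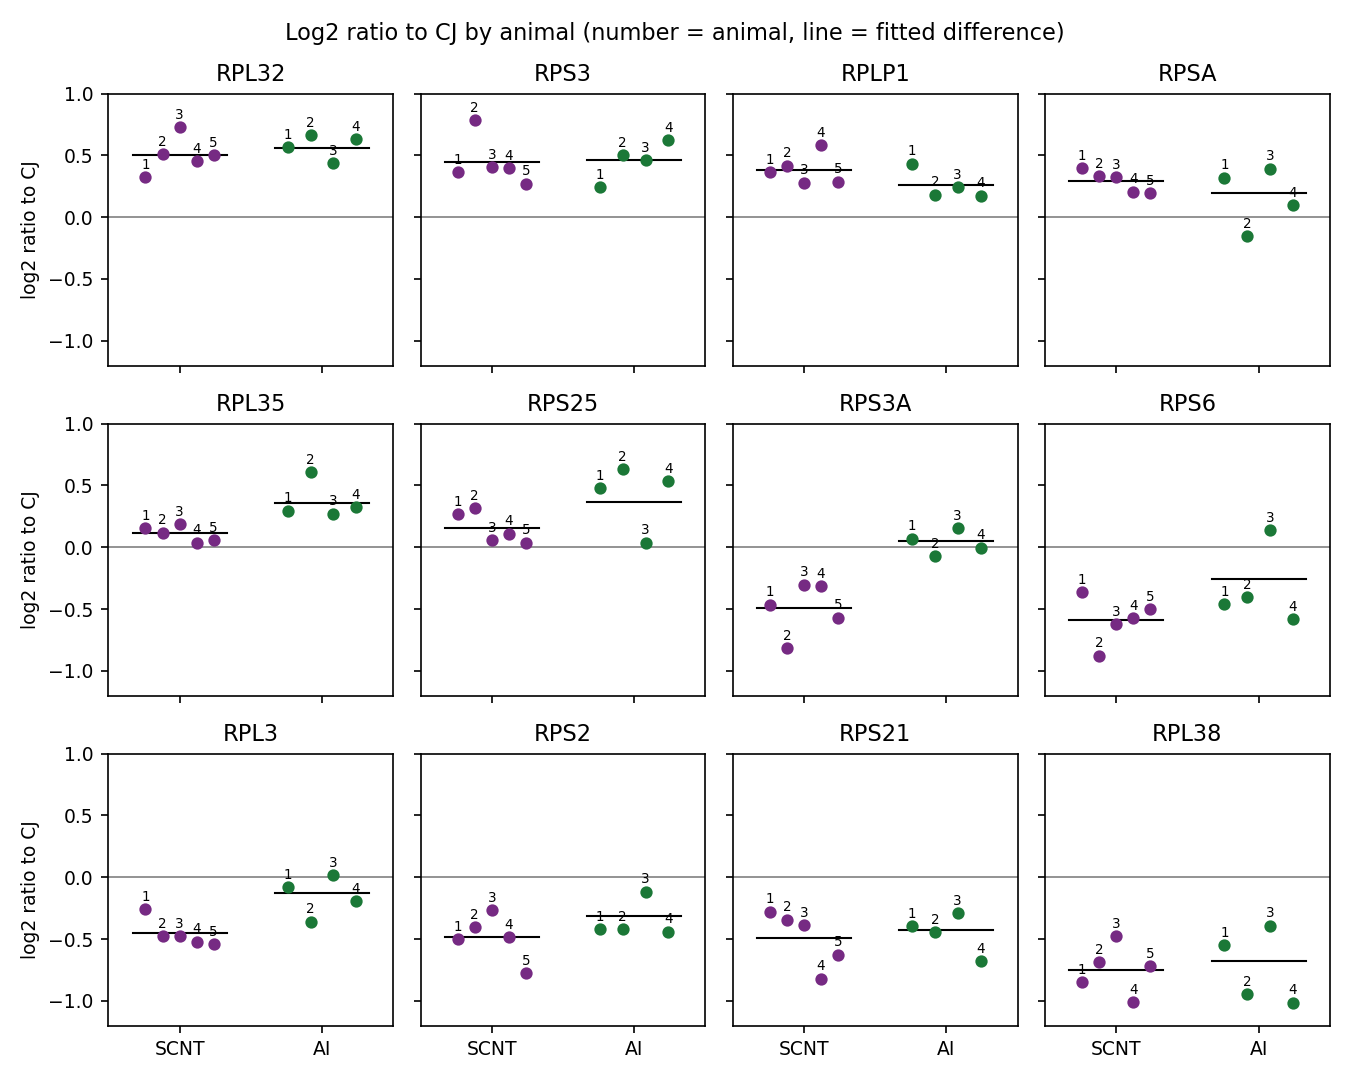
Log2 ratio to CJ (vertical axis) of 12 ribosomal protein genes in each of the 5 SCNT animals (left, purple) and 4 AI animals (right, green), mean of an animal's arrays, with the fitted difference as a line. RPS3A lies between -0.82 and -0.30 in SCNT animals and between -0.07 and 0.16 in AI animals, while RPL32 and RPL38 lie on 1 side of 0 in all 9 animals.

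Among the AI animals set against CJ, number 3 stood apart. AI animal 3 filled 4 of the 10 arrays, and 2 of these shared their CJ animal. The spread of its ribosomal protein genes (interquartile range of the log2 ratios) was 0.226, against 0.599, 0.607 and 0.586 in AI animals 1, 2 and 4. Its ratios average 4 arrays and those of the others 2, which by itself can narrow the spread. On single arrays the SD over the ribosomal protein genes was 0.251 to 0.363 in AI animal 3 and 0.382 to 0.471 in the others. RPS7, for example, had 0.26 in AI animal 3, against -0.71, -0.75 and -0.85 in the others. RPL8 had 0.08, against -0.62, -0.71 and -0.78, and RPS6 had 0.14, against -0.46, -0.40 and -0.58.

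Markers of stromal cells moved with this difference. The median of the 7 stromal markers measured, collagens and others, was 0.63 in AI animal 3, against -2.38, -2.09 and -1.77 in AI animals 1, 2 and 4 and -2.45 to -0.996 in SCNT animals, all relative to CJ. Against CJ, 6 of these 7 fell in SCNT and 3 of 7 in AI, and none rose. Among 8 epithelial markers, 4 rose and 1 fell in SCNT, and 2 rose in AI. Of 8 trophoblast markers, 4 rose in SCNT and none passed the test in AI. Over all named genes, 26.7% were called in SCNT and 18.9% in AI. The part of these shifts in the ribosomal protein results was not tested. Without AI animal 3, 27 ribosomal protein genes were called in SCNT (5 higher, 22 lower) and 24 in AI (9 higher, 15 lower). The share of all probes called was then 27.5% in SCNT and 20.4% in AI.

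Leaving out each of the 14 animals in turn gave 17 to 27 called genes in SCNT and 7 to 24 in AI, the lowest without CJ animal 4. In AI the count was also 10 without CJ animal 1, 11 without CJ animal 5 and 9, 11 and 10 without AI animals 1, 2 and 4. The number of all probes called changed between fits as well. Without AI animal 3 it was 3804 of 13824 in SCNT and 2826 in AI, against 2994 and 2074 with all animals. These ranges are thus not particular to the ribosomal protein genes. In SCNT, 15 of the 23 genes were called in all 14 fits, among them RPL32, RPS3, RPL38, RPS6, RPS21, RPL3, RPS2, RPS3A and RPS4X. In AI, 6 of 18 were: RPL32, RPS3, RPL35, RPL38, RPS21 and RPL27. The SCNT calls of RPLP1 (without SCNT animal 4), RPSA (without CJ animal 4) and RPL35A (without CJ animal 5) were each lost in 1 fit. RPL27 lost it without CJ animal 1 or 4, and RPL34 without CJ animal 4 or SCNT animal 5. RPS15, RPS18 and RPS16 lost it in 4, 6 and 8 of the 14 fits. In AI, RPS25 lost its call without AI animal 2, RPS24 without CJ animal 4 or AI animal 4, and RPL10 without CJ animal 4 or 5 or AI animal 3. The other AI calls were lost in 4 (RPL21) to 11 fits (RPS7), and that of RPS12 in 10.

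RPS14, RPS12 and RPL35 have a second probe. The other RPS14 probe was higher by 0.64 ± 0.07 in SCNT and by 0.68 ± 0.07 in AI than in CJ (limma, adjusted p = 2.23e-06 and 4e-06), while the probe used here had 0.00 and 0.06. The other RPS12 probe had -0.00 in SCNT and 0.08 in AI, against -0.49 and -0.66 for the one used here. With all probes of a gene averaged, RPS12 in AI had -0.29 (limma, adjusted p = 0.117). The second RPL35 probe had 0.08 in SCNT and 0.37 in AI, close to the 0.11 and 0.36 of the first. For RPS14 and RPS12 the value against CJ thus depended on the probe. For SCNT minus AI in the intercaruncular area, the second RPS12 probe had -0.09 and the first 0.17, neither past the threshold.

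The CJ arrays also give the difference between SCNT and AI in the intercaruncular area, through the shared CJ animals. Only RPS3A passed the test among the 55 genes, and it was lower in SCNT. Over all probes, 0.282% were called. RPS3A had -0.30 to -0.82 in the 5 SCNT animals and -0.07 to 0.16 in the 4 AI animals relative to CJ. The difference was -0.54 ± 0.12 (limma, adjusted p = 0.0431). In 12 of the 14 fits without 1 animal, RPS3A did not pass the threshold: those without any 1 of the 5 CJ or 4 AI animals, or without SCNT animal 1, 2 or 5. Its difference stayed between -0.59 and -0.47.

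RPS4X, the X-linked form of a small subunit protein, had a difference of similar size between SCNT and AI (-0.56 ± 0.14, limma, adjusted p = 0.122). RPL21 had -0.32 ± 0.07 (adjusted p = 0.0795). Across the 55 genes, 45 lay below 0 and 10 above, with a median of -0.14, while 50.3% of all probes lay below 0. The unadjusted p (limma) was below 0.05 for 13 of the 55 and for 1058 of the 13824 probes. Without AI animal 3 the median was -0.06. The same comparison had a median of -0.94 for the 7 stromal markers, and none of these passed the test. The part of that shift in the ribosomal protein values was not tested.

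**Figure D3:**
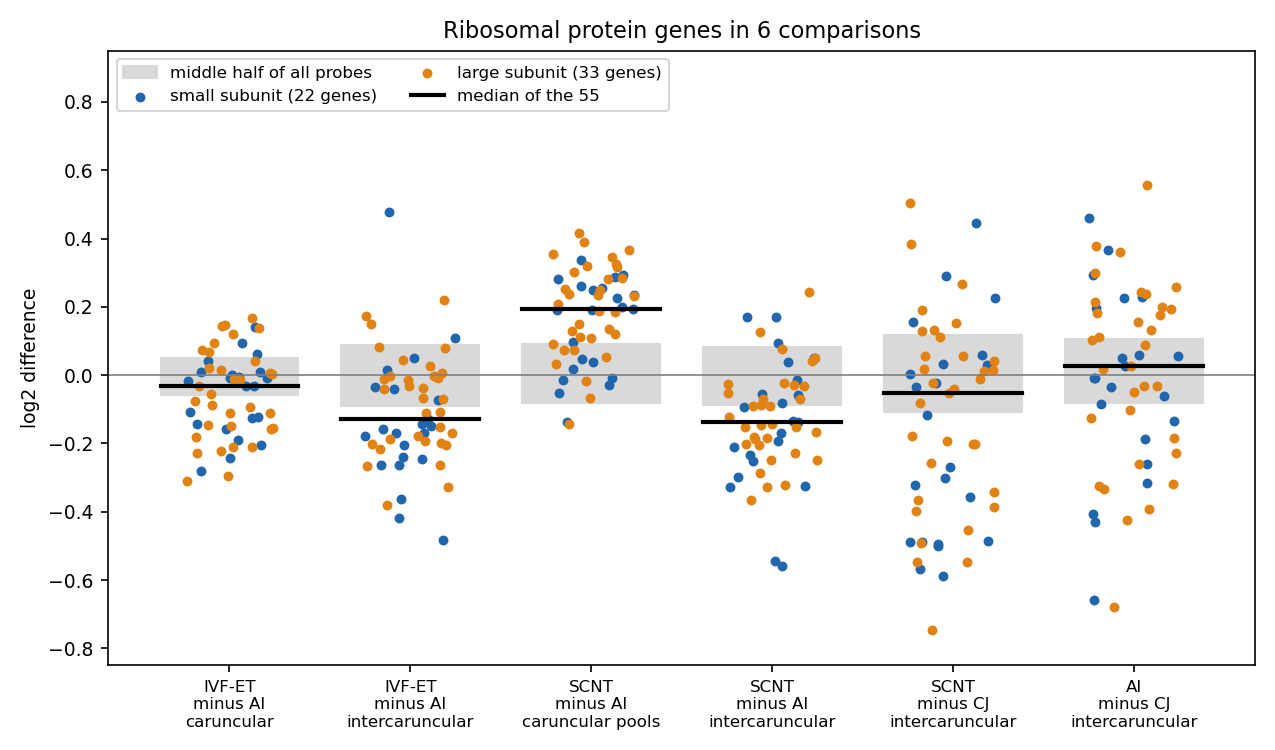
Log2 difference (vertical axis) of each of the 55 ribosomal protein genes in 6 comparisons, small subunit in blue and large subunit in orange, with their median as a line and the interquartile range of all probes as a grey band. The median is 0.19 in the caruncular pools and -0.14 for SCNT minus AI in the intercaruncular area.

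In the caruncular area, SCNT and AI met on 2 pairs of pools. No ribosomal protein gene passed the test, and neither did any other probe (0% of 13824, limma). With 2 values a probe, this test has 1 residual degree of freedom. The log2 differences of the 55 genes had a median of 0.19, with 47 above 0, against 0.00 and 7032 above 0 for all 13824 probes. The unadjusted p was below 0.05 for 19 of the 55 and for 1744 of the 13824 probes. Of the 33 large subunit genes, 30 lay above 0, and of the 22 small subunit genes, 17.

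Both pairs of pools gave a value above 0 for 40 of the 55 genes and below 0 for 4. Over all probes, 30.4% were above 0 in both pairs and 28.5% below. The median of the ribosomal protein genes was 0.11 in SCNT pool 1 and 0.23 in SCNT pool 2, each against its AI pool. The smallest p belonged to RPL27, with 0.37 and 0.46 in SCNT pools 1 and 2 (0.42 ± 0.08, limma, adjusted p = 0.184). RPL13 had 0.34 and 0.37 (0.35 ± 0.08, adjusted p = 0.226), and RPL26, which lies near the exit tunnel, had 0.28 and 0.42 (0.35 ± 0.09, adjusted p = 0.253). For all 3 genes the pools were above 0 on each of their 4 arrays.

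RPS3A, RPSA, RPLP1 and RPLP2 did not pass the test in the pools either. RPS3A had 0.22 and 0.18 in SCNT pools 1 and 2, and RPSA had -0.07 and 0.15. RPLP1 had -0.12 and -0.02, and RPLP2 had 0.09 and 0.41. The sign of RPS3A in the pools was opposite to that in the intercaruncular area (-0.54), and whether these 2 differ was not tested. The lowest member in the pools was RPL10 (-0.18 and -0.11). The second probe of RPL35 had -0.15, against 0.23 for the probe used here.

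Cell type markers also differed between the pools, without passing the test. The 8 epithelial markers had a median of -0.14 in SCNT pool 1 and -0.61 in SCNT pool 2, and the 8 trophoblast markers had 1.77 and 0.16. The 7 stromal markers had 0.09 and 0.03. The part of these values in the ribosomal protein result was not tested.

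The IVF-ET arrays asked how tissue of IVF-ET animals differed from that of AI animals. No ribosomal protein gene passed the test in the caruncular area (0.0217% of all probes did) or the intercaruncular area (0.00724%), and none differed in effect between the 2 areas (0.00723%). The unadjusted p was below 0.05 for 9, 8 and 3 of the 55 in these 3 tests (limma), and for 1260, 1285 and 1070 probes overall.

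In the caruncular area the median difference was -0.03, with 20 genes above 0 and 35 below, against -0.01 for all probes. RPL30, RPSA and RPS15A had the smallest p. RPL30 had -0.16, -0.11, -0.52, -0.29 and -0.03 in IVF-ET animals 1 to 5, each relative to AI animals (-0.22 ± 0.07, limma, adjusted p = 0.445). RPSA had -0.45, -0.03, -0.62, -0.32 and 0.01 (-0.28 ± 0.10, adjusted p = 0.451). RPS15A had -0.24, 0.03, -0.21, -0.20 and -0.16 (-0.16 ± 0.05, adjusted p = 0.457). IVF-ET animals 2 and 5 were the nearest to 0 or above it for RPL30 and RPSA.

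The same 2 animals were the only ones whose ribosomal protein median was above 0 in the caruncular area, with 0.11 and 0.13. IVF-ET animals 1, 3 and 4 had -0.16, -0.27 and -0.09. The median also varied with the AI animal on the same array. It was -0.21 and -0.31 over the arrays of AI animals 2 and 7. For AI animals 4, 5 and 6 it was 0.08, 0.02 and 0.13. IVF-ET animal 3 met only AI animals 2 and 7, while IVF-ET animals 2 and 5 shared AI animal 6. IVF-ET animal 4 had 0.04 against AI animal 4 and -0.22 against AI animal 2. The parts of IVF-ET and AI animals in this split cannot be told apart. In this area RPS3A had -0.20, 0.22, -0.68, -0.16 and 0.22 in IVF-ET animals 1 to 5. RPLP1 had -0.20, 0.32, -0.49, -0.11 and 0.10, and RPLP2 had -0.28, 0.11, -0.24, -0.07 and 0.41. For each of these genes animals 2 and 5 were above 0 and the other 3 below. The second probe of RPL35 had a difference of -0.05 in this area, against 0.07 for the first, neither past the threshold.

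Cell type markers varied among the IVF-ET animals as well. In the caruncular area the 8 epithelial markers had medians of -0.00, 0.07, 0.74, 0.35 and -0.37 in IVF-ET animals 1 to 5, and the 7 stromal markers had 0.10, -0.20, -0.38, 0.13 and 0.16. The 8 trophoblast markers had 1.06, 0.96, 0.13, 0.12 and -0.17. IVF-ET animal 3, which had the lowest ribosomal protein median, had the highest epithelial and the lowest stromal one. All of these are ratios to AI animals 2 and 7, the only ones it met. None of these markers passed the test, and their part in the ribosomal protein values was not tested.

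In the intercaruncular area the median difference was -0.13, with 12 genes above 0 and 43 below, while 51% of all probes lay below 0. The ribosomal protein medians were -0.11, -0.15, -0.08, -0.27 and 0.00 in IVF-ET animals 1 to 5. RPL39, a short protein of the exit tunnel, had -0.04, -0.32, -0.16, -0.96 and -0.43 (-0.38 ± 0.12, limma, adjusted p = 0.469). RPS15, whose end reaches the decoding site, had -0.22, -0.27, -0.28, -0.93 and -0.12 (-0.36 ± 0.13, adjusted p = 0.488). RPS29, a small zinc-binding protein, had -0.09, -0.24, -0.08, -1.34 and -0.67 (-0.48 ± 0.18, adjusted p = 0.488). IVF-ET animal 4 was the lowest for each of the 3. Its ribosomal protein median was -0.49 on the array with AI animal 2 and -0.06 on that with AI animal 4. The array with AI animal 2 had the highest SD of all arrays (0.62).

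RPS16 had the highest difference in this area (0.48 ± 0.24, limma, adjusted p = 0.579), with 1.36, 0.72 and 0.47 in IVF-ET animals 1, 4 and 5 and -0.10 and -0.07 in animals 2 and 3. RPS3A had -0.10, -0.42, -0.24, 0.04 and 0.35 in IVF-ET animals 1 to 5. RPSA had 0.22, -0.12, 0.05, -0.27 and 0.19. RPLP1 had -0.13, 0.15, -0.01, -0.37 and -0.17, and RPLP2 had -0.09, 0.06, -0.24, -0.63 and -0.18. None of these genes had all 5 animals on 1 side of 0. The second probe of RPS12 had 0.02, against -0.04 for the first, neither past the threshold.

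In the same area the epithelial markers had medians of -0.26, -0.02, -0.62, 0.12 and 0.14 in IVF-ET animals 1 to 5, and the stromal markers had 0.31, 0.19, 0.84, -0.46 and 0.26. The trophoblast markers had 0.99, 0.27, 0.38, -0.25 and -0.77. IVF-ET animal 4, with the lowest ribosomal protein median here, had the lowest stromal median. That ribosomal protein median was -0.49 against AI animal 2 and -0.06 against AI animal 4. No marker tested passed the threshold, and their part in the ribosomal protein values was not tested.

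Between the areas, RPL34, RPS21 and RPL37A had the smallest p for the difference of the IVF-ET effect, caruncular minus intercaruncular. RPL34 had 0.43 ± 0.15, RPS21 had 0.46 ± 0.20 and RPL37A had -0.24 ± 0.11 (limma, adjusted p = 0.574, 0.615 and 0.634). RPL34 had 0.32, 0.29, 0.27, -0.08 and 0.02 in the caruncular and -0.13, -0.26, -0.45, -0.50 and 0.01 in the intercaruncular area of IVF-ET animals 1 to 5. All 5 animals thus had the higher value in the caruncular area, by 0.01 in animal 5 and by 0.43 to 0.73 in the others. With the areas compared within each IVF-ET animal, a fit chosen after seeing the data, RPL34 had 0.43 ± 0.12 (limma, adjusted p = 0.71), and no ribosomal protein gene passed the test. The second probes of RPS12 and RPL35 had -0.22 and -0.04 for the difference between the areas, against 0.04 and 0.18 for the first, none past the threshold.

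**Figure D4:**
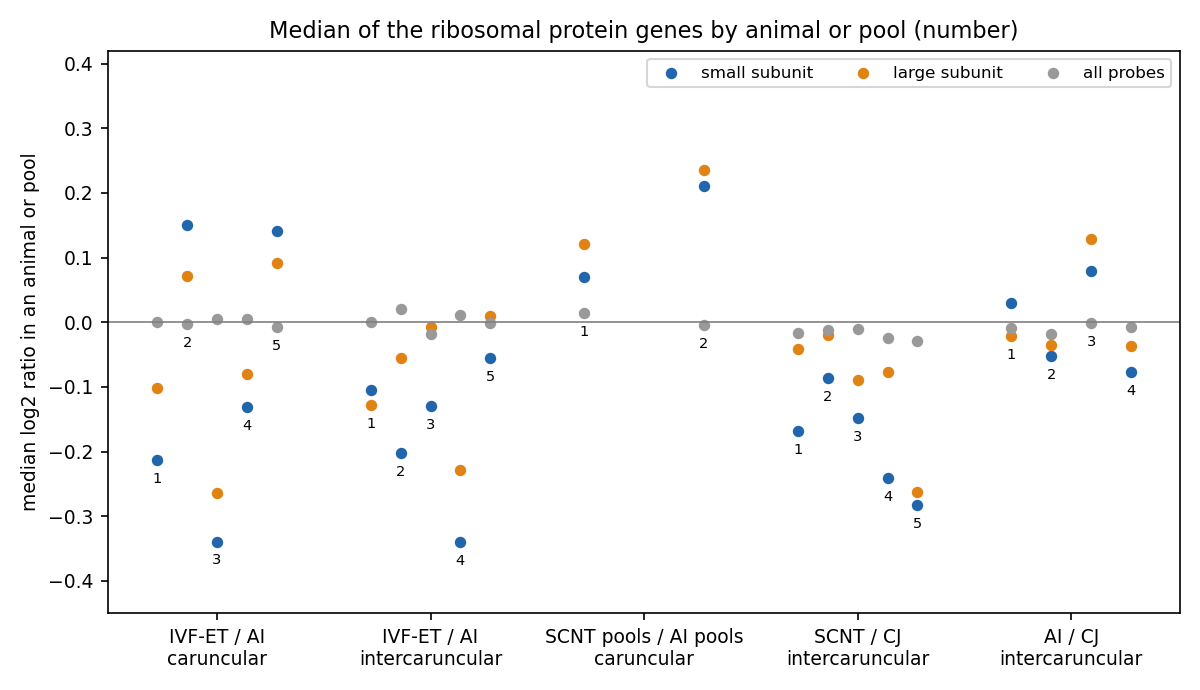
Median log2 ratio (vertical axis) of the small subunit genes (blue), large subunit genes (orange) and all probes (grey) in each IVF-ET, SCNT or AI animal or SCNT pool against its comparison animals. In the caruncular IVF-ET arrays 2 animals lie above 0 and 3 below, while both pools lie above 0 and all 5 SCNT animals below it.

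Genes that act with the ribosomal proteins were taken from lists of known members. Ribosome biogenesis factors make and process ribosomal RNA and assemble the subunits, and 39 of 56 listed were measured. Against CJ, 1 rose and 16 fell in SCNT, and none rose and 15 fell in AI. Over all probes, 10.4% rose and 11.3% fell in SCNT, and 6.92% rose and 8.08% fell in AI. The median of the list was -0.23 in SCNT and -0.18 in AI. FBL, the methyltransferase of box C/D particles, had -0.90 in SCNT and -0.73 in AI, and the nucleolar GTPase GNL3 had -0.64 and -0.63. NHP2, a protein of box H/ACA particles, had -0.63 and -0.83, and NCL (nucleolin) had -0.49 and -0.41. SBDS, which releases EIF6 from the large subunit, rose in SCNT (0.41).

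AI animal 3 did not stand apart for this list. Its median over the 39 biogenesis genes was -0.27, against -0.17, -0.26 and -0.22 in AI animals 1, 2 and 4. The SCNT animals had -0.33 to -0.18. In the caruncular pools the median was 0.07, in the IVF-ET comparisons it was 0.03 (caruncular) and 0.05 (intercaruncular), and no gene of the list passed the test in any of these.

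**Figure D5:**
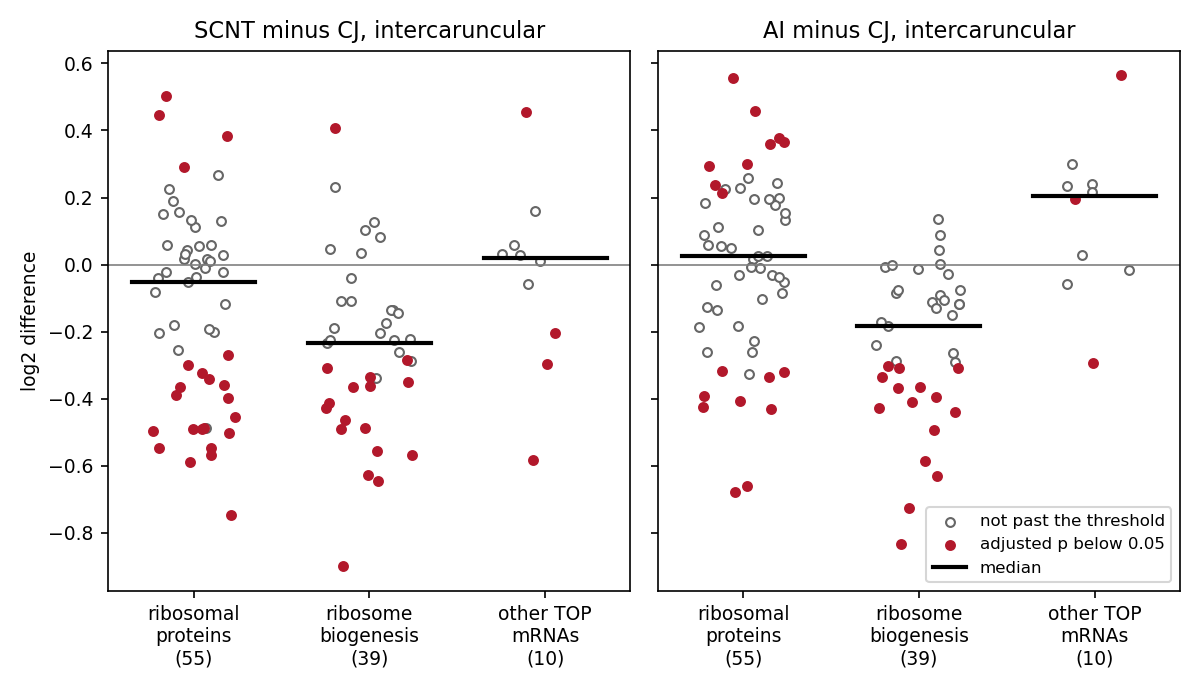
Log2 difference (vertical axis) of each ribosomal protein gene (55), ribosome biogenesis gene (39) and other TOP mRNA (10) in SCNT (left) and AI (right) against CJ, with filled red points past an adjusted p of 0.05 and the median as a line. The biogenesis genes have medians of -0.23 and -0.18, and 1 of them rose, in SCNT.

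Other mRNAs with a TOP tract, mainly translation factors, were measured for 10 of 15 listed genes. Against CJ, 1 rose and 3 fell in SCNT, and 2 rose and 1 fell in AI, where 26.7% (SCNT) and 18.9% (AI) of all named genes were called in either direction. TPT1, the translationally controlled tumour protein, rose by 0.46 in SCNT and 0.56 in AI. EEF1B2, a subunit of the elongation factor exchange complex, had -0.58 in SCNT and -0.29 in AI. BTF3 rose in AI (0.20), while EEF1D (-0.30) and NACA (-0.20) fell in SCNT. For SCNT minus AI in the intercaruncular area all 10 lay between -0.29 and -0.00, with a median of -0.20 and none past the threshold, and in the pools their median was 0.12.

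Relatives that the symbol rule leaves out were measured for 9 of 10 genes. Against CJ, 1 rose and 1 fell in SCNT, and the same counts held in AI. Of all named genes, 26.7% (SCNT) and 18.9% (AI) were called in either direction. FAU, whose product is cleaved to a ubiquitin-like protein and the ribosomal protein eS30, rose by 0.79 in SCNT and 0.58 in AI. RPS19BP1, a nucleolar binding partner of RPS19, had -0.23 in SCNT and -0.46 in AI, both past the threshold. Neither the S6 kinases RPS6KB1 and RPS6KB2 nor RACK1, which docks on the small subunit, passed it against CJ. Of 8 measured genes that act through mTORC1, 1 rose and 2 fell in SCNT and 1 rose in AI, beside the same shares of all named genes. RHEB, the activator of mTORC1, rose by 0.65 in SCNT. MLST8, a subunit of the complex, had -0.40 and its target EIF4EBP1 had -0.39, both lower in SCNT, and the inhibitor TSC2 rose by 0.25 in AI. None of these lists had a member past the threshold in the IVF-ET or pool comparisons.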

How the data were processed

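Each array value deposited by the authors is a log2 ratio of the 2 dyes of a spot. Base 2 was tested on 331 values below -4. The numerator dye, the background correction and the authors' normalization were not given in the sources used here. Per the labels' protocols, RNA of frozen tissue was copied from oligo-dT primers and coupled to Cy3 or Cy5. Duplicate spots were averaged to 13824 probes, with no further normalization. The supplied annotation, which is old, names 1 gene for 8645 probes, several for 105 and none for 5074. A probe was tested if at least 80% of the arrays in a fit had a value. RPL31 lacks a value on 1 array.

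The model, in limma 3.58.1 (R 4.3.3), was generalised least squares. It held a dye term and a common correlation between arrays of the same animal (0.13 caruncular IVF-ET, 0 intercaruncular, 0.01 both, 0.12 with CJ). Pools were averaged by pair. Adjustment was by Benjamini-Hochberg over all probes, threshold 0.05. All 20 arrays with CJ shared 1 fit, so the SCNT and AI differences share the CJ samples. Animals are numbered within their group, with IAT and IAJ counted as separate groups. Arrays were the units of the fit, and animals entered it only through the common correlation. Where that was 0, arrays of the same animal counted as independent, so the p-values measure in part the spread of arrays. Only the caruncular IVF-ET fit and the fit with CJ were tested on simulated data, drawn with the common correlation that the fit assumes. Of 100 probes shifted by 0.5, 93% were recovered for IVF-ET minus AI and 75% for SCNT minus CJ. Unshifted probes called were 10 and 12. The other fits and SCNT minus AI were not tested in this way.

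A gene with several probes is represented by the one with the fewest missing values, then the first. Genes past the threshold could be named. Values per animal are given for up to 8 of smallest p per comparison, for RPS3A, RPSA, RPLP1 and RPLP2, and for the 3 of smallest p where none passed. A second probe is given where it differs in sign or by more than 0.5. RPS12, RPS16, RPS7, RPL8, RPS6 in AI, RPL10 and RPL34 got values per animal or pool after these had been seen. The members and lists were chosen with earlier results of these data known.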

Additional observations from a re-analysis of the deposited data

Results flagged for a closer look

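In the sets of values per animal, 1 animal lay far from the others of its group for 4 of 40 sets examined (chance does this for about 1 set in 20). RPS15 was at -0.93 in IVF-ET animal 4 of the intercaruncular area, while the other 4 lay between -0.28 and -0.12. The array of this animal with AI animal 2 had the highest SD of all arrays (0.62). RPL3 was at -0.26 in SCNT animal 1, against -0.54 to -0.47 in the other SCNT animals. RPS3 was at 0.78 in SCNT animal 2, against 0.27 to 0.41 in the others. RPL35 was at 0.61 in AI animal 2 of the arrays with CJ, against 0.27 to 0.32 in the others.

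The RPS3A difference from CJ passed the test between SCNT and AI: the 2 effects differed by -0.54 (limma, adjusted p = 0.0431). It did not pass in 12 of the 14 fits without 1 animal, nor with the arrays scaled to 1 SD. On the AI arrays the RPS3A ratio had its sign by dye, above 0 on the 5 arrays with AI in Cy3 and below 0 on the 5 with AI in Cy5, while all 10 SCNT arrays were below 0. Each animal's value averages both dyes, and the fit has a dye term.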

How the results depend on the processing

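No alternative reversed a call. With the 4 pooled arrays as 4 values and a dye term, 1 ribosomal protein gene was called instead of 0, and 257 probes instead of 0 (16 with arrays centred on their median). These arrays are dye swaps of the same 2 pairs of pools, so this setting counts technical repeats as replicates. Scaling the arrays to 1 SD called 0 instead of 1 for SCNT minus AI in the intercaruncular area, RPS3A then having -0.48 (limma, adjusted p = 0.0595). Without 1 animal, the counts were 17 to 27 for SCNT against CJ, 7 to 24 for AI against CJ, 0 to 1 for SCNT minus AI and 0 throughout for IVF-ET. Over all probes they were 1286 to 2826 for AI against CJ, instead of 2074, and 8 to 53 for SCNT minus AI, instead of 39, over all alternatives, and 0 to 3 for IVF-ET. For SCNT against CJ, 3804 probes were called without AI animal 3, instead of 2994. The other alternatives gave 22 to 27 ribosomal protein genes in SCNT and 12 to 21 in AI, 12 with the AI arrays alone. Under scaling, RPS18 (SCNT) and RPL37, RPL37A and RPS7 (AI) also lost their calls.

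The medians were recomputed by a choice made after seeing the data. They moved to 0.30 in the pools under scaling and, for the difference between the areas, to 0.16 without AI animal 7 of the IVF-ET arrays. The following 3 changed sign without 1 animal: AI against CJ to -0.02 without CJ animal 3 (-0.00 without CJ animal 5 or AI animal 3), IVF-ET in the caruncular area to 0.01 without AI animal 7 (0.00 without IVF-ET animal 3), and the difference between the areas to -0.00 without IVF-ET animal 2. The cause was not tested. Other medians moved by over 1.5 times without 1 animal: SCNT against CJ, at -0.05, to -0.10 without CJ animal 2 and between -0.09 and -0.08 without CJ animal 4 or SCNT animal 1 or 3, and IVF-ET in the intercaruncular area, at -0.13, to -0.08 without AI animal 2 or 3 of its arrays. IVF-ET in the caruncular area, at -0.03, was between -0.11 (without AI animal 6) and 0.01. The difference between the areas, at 0.05, was also 0.13 without IVF-ET animal 3 and 0.02 without AI animal 5 or 6.

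The same 5 IVF-ET animals gave both areas, so the areas were also compared within animals, taking the animal as the replicate block. The caruncular minus the intercaruncular value of each IVF-ET animal, a setting added after seeing the data, called 0 ribosomal protein genes, as without the block, and 0 of 13816 probes instead of 1 (limma). The unadjusted p was below 0.05 for 5 of the 55 genes and 940 probes. The AI animals set against them were in part different ones in the 2 areas, which this block does not remove. With a correlation also allowed between the areas of an animal, 0 ribosomal protein genes and 1 probe were called. The number of animals and pools limits the precision of every value.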
